A study of Mus musculus with 9 samples.

Results

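Macrophage marker genes were examined in cultures of primary mouse embryo fibroblasts (MEFs), across cells lacking Tgif1 and wild type cells. The genes were taken from a list of 41 known macrophage genes, every one of which was measured, so that 41 of the 18194 genes named on the arrays and 71 of the 45101 probe-sets are described here. A probe-set is a group of short probes that together measure 1 transcript.

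The 9 arrays form 3 groups of 3, each array from an independent culture. They are Tgif1 null cells (genotype Tgif1 -/-) harvested at passage 3, wild type cells harvested at passage 5 (P5) and wild type cells harvested at passage 3 (P3). All were primary MEFs of strain C57BL/6J x 129Sv/J, taken from embryos of 13.5 days, grown in DMEM with 10% fetal bovine serum without treatment, and passaged on a 3T3 schedule of reseeding at fixed density. Primary MEFs are made from whole minced embryo tissue and are not sorted, so other embryonic cells can be carried along with the fibroblasts. The sample titles do not say which embryo or isolation each culture came from. Differences between genotypes and between preparations therefore cannot be told apart. The question of the study was whether null cells at passage 3 come to look like wild type cells at passage 5, and the wild type P3 cells serve as reference for both.

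Macrophages settle in most embryonic tissues before birth. They depend on the receptor Csf1r, whose ligand Csf1 is made by fibroblasts, and on the transcription factor PU.1, encoded by Spi1. Their typical products are lysosomal enzymes, receptors for antibody-coated or damaged material and complement C1q, and many carry the common leukocyte protein CD45, encoded by Ptprc.

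Signals are given on the log2 scale, so that a difference of 1 is a doubling, and each gene is represented by the probe-set with the highest mean over the 9 arrays. The lowest value on the arrays was 2.23, and a gene was called above background where all 3 arrays of at least 1 group lay above 4. The deleted gene, Tgif1, lay between 2.48 and 3.21 on the null arrays and between 9.72 and 10.18 on the wild type arrays, although where its probes lie relative to the deletion is not known here. Replicate arrays correlated at 0.9961 to 0.9991 over all probe-sets. Null array 1 stood somewhat apart: among 9931 genes with a mean above 4 it was the highest of the 9 arrays in 20.1%, against 4.50% to 15.1% for each of the others. All 12 listed fibroblast genes were above background, as were 54.9% of all genes. Of the 12, the matrix proteoglycan Dcn was lower in null than in P3 cells (-0.73, adjusted p = 0.0317 by limma, a call lost in 11 of 17 alternative settings). The others did not pass in that comparison. In P5 against P3 cells 4 of the 12 rose (6.13% of all genes), and 5 were lower in null than in P5 cells (5.33%).

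Of the 41 macrophage genes, 17 were above background and 24 were not, while 54.9% of all genes were above background by the same rule. Several of the genes that define the lineage most strictly lay at or near the lowest value. Spi1 had 2.34, 2.31 and 2.23 in null cells, 2.23 on each of the P5 arrays, and 2.23, 2.23 and 2.24 in P3 cells. Ptprc had 2.36, 2.25 and 2.25 in null cells, 2.25, 2.23 and 2.25 in P5 cells, and 2.25, 2.29 and 2.25 in P3 cells. The integrin chain Itgam, the alpha chain of the Mac-1 receptor, lay at 2.23 on all 9 arrays. Its partner Itgb2 lay at 2.23 on 8 arrays and at 2.75 on null array 1. A probe-set at this level shows only that nothing was measured over probe background.

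**Figure D1:**
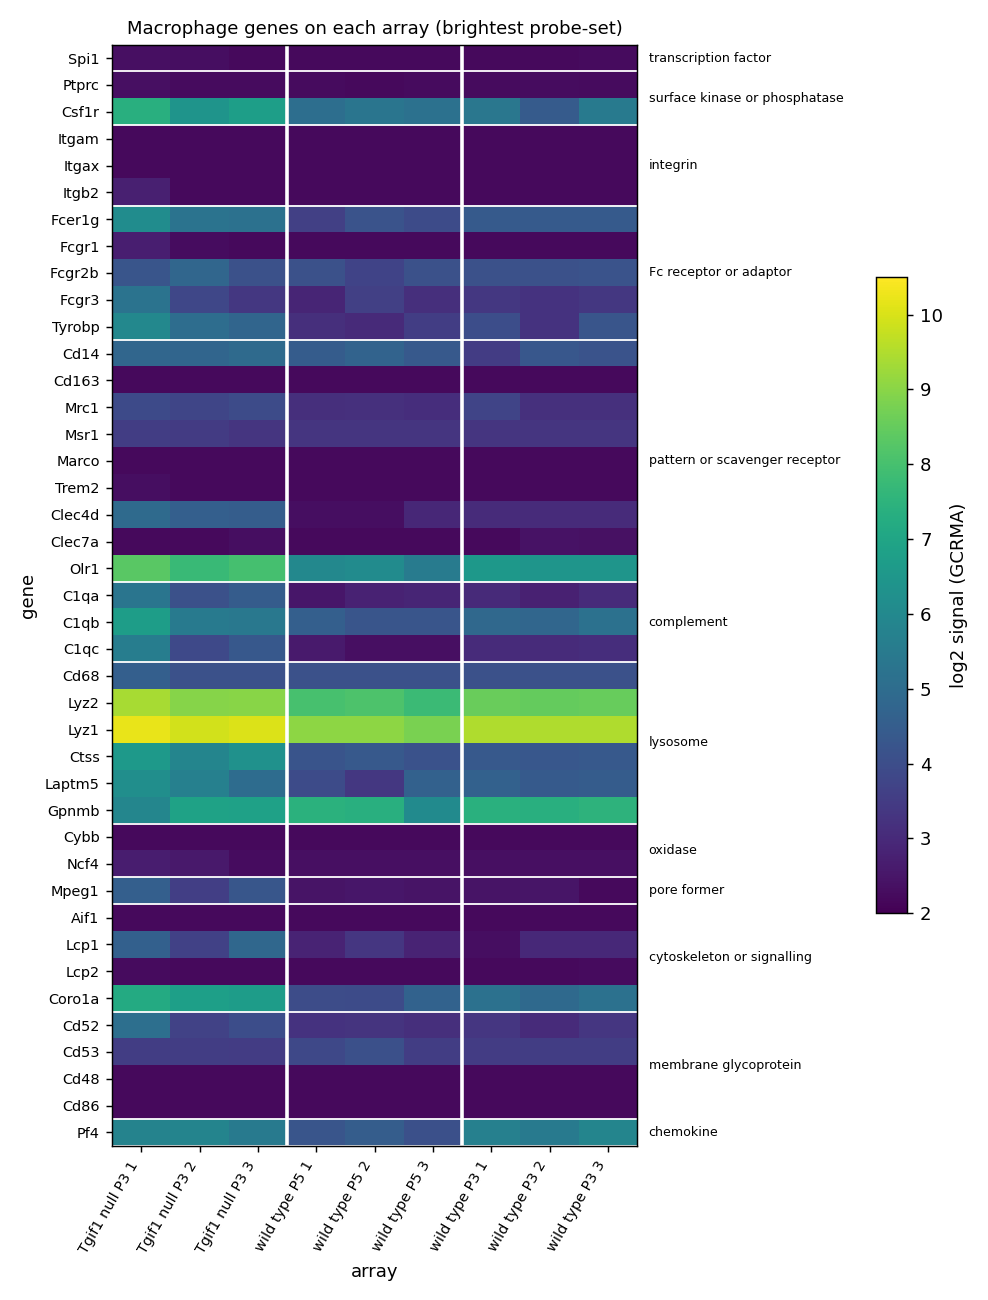
Log2 signal of the 41 macrophage genes (rows, grouped by role) on the 9 arrays (columns, 3 arrays for each group). The colour runs from the background at 2.23 in dark blue to the highest values in yellow; Spi1, Itgam and Ptprc are dark in every column, while Ctss, Coro1a, Olr1 and Csf1r are brighter in the null columns than in the others.

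In all, 13 of the 41 genes stayed under 2.5 on every array. They were Spi1, Ptprc, Itgam, the integrin alpha chain Itgax, the surface proteins Cd48 and Cd86, the scavenger receptors Cd163 and Marco, the lipid receptor Trem2, the beta-glucan receptor Clec7a, the calcium-binding protein Aif1, the adaptor Lcp2 and the oxidase subunit Cybb. Another 5 stayed under 4, namely Itgb2, the mannose receptor Mrc1, the scavenger receptor Msr1, the high-affinity IgG receptor Fcgr1 and the oxidase subunit Ncf4. The other 23 reached 4 on at least 1 array. By group, 17 genes had all 3 arrays above 4 in null cells, 10 in P5 cells and 13 in P3 cells, and 9 were above 4 on all 9 arrays. A signal above 4 was in some cases only a probe-set's own resting level. Cd68, a lysosomal membrane protein often used to stain macrophages, read 4.12 on 8 arrays and 4.57 on null array 1. Fcgr2b, the inhibitory IgG receptor, had 4.23, 4.81 and 4.12 in null cells, 4.11, 3.71 and 4.12 in P5 cells, and 4.12, 4.12 and 4.18 in P3 cells.

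Against wild type P3, 5 of the 41 macrophage genes rose in Tgif1 null cells and none fell, by limma's test with Benjamini-Hochberg adjustment over all probe-sets at an adjusted p under 0.05. Over all 18194 genes, 1.51% rose and 1.07% fell in this comparison. At an unadjusted p under 0.05, 19 of the 41 were higher and 0 lower, against 7.67% and 7.57% of all genes. All 3 null arrays lay above all 3 P3 arrays in 18 of the 41, against 8.24% of all genes. The median difference over the 41 genes was 0.19, with 0 over all genes, and 0.08 without null array 1. The 5 genes were Ctss, Coro1a, Mpeg1, Clec4d and Olr1, and each was also higher in null cells than in wild type P5 cells. These arrays measure RNA of a whole culture, so that more macrophages and more of these RNAs per cell cannot be told apart.

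The sequences around the starts of these 5 genes are shown because each passed the test as higher in the null than in P3. Each is RefSeq sequence of build GRCm38.p6, read along the gene's strand from 250 bases before to 50 bases after the start. Capitals mark GAGGAA, the core that PU.1 binds, and CTGTCA, the core that Tgif1 binds, or their reverse complements TTCCTC and TGACAG; these motifs do not overlap each other here. The regions are chr3:95526536-95526835 (plus strand) for Ctss, chr19:12460520-12460819 (plus) for Mpeg1, chr7:126704767-126705066 (minus) for Coro1a, chr6:123261857-123262156 (plus) for Clec4d and chr6:129507116-129507415 (minus) for Olr1.
Ctss: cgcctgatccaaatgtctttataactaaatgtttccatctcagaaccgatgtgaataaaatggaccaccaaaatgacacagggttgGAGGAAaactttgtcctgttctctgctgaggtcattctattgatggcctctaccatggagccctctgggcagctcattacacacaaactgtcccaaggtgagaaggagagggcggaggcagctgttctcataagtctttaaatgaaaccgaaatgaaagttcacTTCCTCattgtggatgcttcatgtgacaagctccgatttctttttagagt
Mpeg1: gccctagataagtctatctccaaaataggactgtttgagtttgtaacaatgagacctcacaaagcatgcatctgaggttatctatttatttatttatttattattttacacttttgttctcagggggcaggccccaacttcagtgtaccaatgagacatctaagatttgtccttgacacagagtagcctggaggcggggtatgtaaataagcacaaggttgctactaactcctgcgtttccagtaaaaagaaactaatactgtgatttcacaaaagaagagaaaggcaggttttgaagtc
Coro1a: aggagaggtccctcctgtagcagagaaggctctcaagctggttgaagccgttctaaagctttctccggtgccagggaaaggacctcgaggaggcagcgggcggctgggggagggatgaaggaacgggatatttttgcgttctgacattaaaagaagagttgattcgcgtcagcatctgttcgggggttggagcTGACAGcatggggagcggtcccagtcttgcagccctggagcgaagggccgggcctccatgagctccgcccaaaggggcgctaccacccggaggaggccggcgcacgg
Clec4d: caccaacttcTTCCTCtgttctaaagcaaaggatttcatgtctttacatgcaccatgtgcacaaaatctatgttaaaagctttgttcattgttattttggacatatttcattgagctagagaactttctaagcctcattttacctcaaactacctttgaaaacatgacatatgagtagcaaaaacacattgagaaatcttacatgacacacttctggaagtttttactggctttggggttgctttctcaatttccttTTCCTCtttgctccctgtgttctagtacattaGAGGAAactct
Olr1: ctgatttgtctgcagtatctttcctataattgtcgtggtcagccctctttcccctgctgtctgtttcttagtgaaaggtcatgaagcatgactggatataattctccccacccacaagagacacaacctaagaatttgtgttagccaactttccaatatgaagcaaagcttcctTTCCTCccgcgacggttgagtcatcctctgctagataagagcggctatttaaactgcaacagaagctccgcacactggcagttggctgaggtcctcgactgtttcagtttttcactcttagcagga

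Clec4d held GAGGAA 3 times, Ctss 2 times, Olr1 1 time, and Mpeg1 and Coro1a 0 times. CTGTCA was found 1 time in Coro1a, at the more upstream of its 2 listed starts, and in none of the other 4 windows. Among the 41 macrophage genes, 31 were matched to 36 such windows. GAGGAA was in 22 of the 36 (61.1%), against 28.3% of all 32851 windows. CTGTCA was in 7 of the 36 (19.4%), against 19.2% of all windows. Such a match is a description of the letters, not of a bound site, and the shares were not tested.

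Ctss encodes cathepsin S, the protease that trims the invariant chain in antigen-presenting cells. It had 6.58, 5.87 and 6.31 in null cells, 4.22, 4.39 and 4.13 in P5 cells, and 4.39, 4.32 and 4.37 in P3 cells. Every null array lay well above every wild type array, and the wild type groups overlapped. The difference to P3 was 1.89 (SE 0.17, 3.71-fold, limma adjusted p = 0.00977) and that to P5 was 2.002 (SE 0.17, 4.01-fold, adjusted p = 0.00208). Ctss was the only 1 of the 5 genes that kept its call against P3 when any single array was left out. In a fit of the 6 null and P3 arrays alone it missed the threshold (adjusted p = 0.0762), and Clec4d was the 1 macrophage gene called.

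Coro1a encodes coronin 1A, an actin-binding protein of leukocytes. It had 7.21, 6.81 and 6.68 in null cells, 3.97, 3.95 and 4.66 in P5 cells, and 5.17, 4.89 and 5.16 in P3 cells. The groups did not overlap, with P5 cells lowest. The difference was 1.82 to P3 (SE 0.24, 3.54-fold, adjusted p = 0.0237) and 2.71 to P5 (SE 0.24, 6.53-fold, adjusted p = 0.00208), the largest difference to P5 among the 41 genes. A second probe-set of Coro1a had 5.37, 4.57 and 4.99 in null cells, 3.59, 3.83 and 3.54 in P5 cells, and 3.89 on each P3 array, with a difference to P3 of 1.09 (adjusted p = 0.0605). Another lay at 2.23 on all arrays.

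Mpeg1 encodes perforin-2, a pore-forming protein that macrophages aim at engulfed bacteria. It had 4.56, 3.59 and 4.27 in null cells, 2.45, 2.50 and 2.45 in P5 cells, and 2.45, 2.48 and 2.23 in P3 cells. Both wild type groups were near the lowest value while null cells were not, although null array 2 stayed under 4. The difference to P3 was 1.75 (SE 0.24, 3.37-fold, adjusted p = 0.0264) and that to P5 was 1.67 (adjusted p = 0.0106).

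A pair of lectin-like receptors whose genes lie on chromosome 6 rose as well. Clec4d, a receptor for mycobacterial glycolipid that signals through Fcer1g, had 4.92, 4.56 and 4.52 in null cells, 2.32, 2.32 and 2.94 in P5 cells, and 3.05, 3.05 and 3.06 in P3 cells. Its difference to P3 was 1.61 (SE 0.19, 3.06-fold, adjusted p = 0.0192), and that to P5 was 2.14 (adjusted p = 0.00233). Olr1 encodes LOX-1, a receptor for oxidized lipoprotein that endothelial cells also make. It had 8.34, 7.77 and 7.98 in null cells, 5.97, 6.11 and 5.53 in P5 cells, and 6.54, 6.44 and 6.42 in P3 cells. Its difference to P3 was 1.56 (SE 0.19, 2.95-fold, adjusted p = 0.0212) and that to P5 was 2.16 (adjusted p = 0.00225), and the 3 groups did not overlap.

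Several of the P3 values were tied. The 3 P3 values of Clec4d lay within 0.01 of each other, as did those of Fcer1g and Lyz1. A test that takes each gene's spread mainly from its own values, as here (prior degrees of freedom 0.345 beside 6 residual), then rests on a small measured spread. With a variance prior that was fitted to the signal level and made robust, 1 of the 5 genes, Ctss, kept its call. The count of 5 became 1 without P3 array 2 or 3, 2 without P3 array 1 or P5 array 1, and 3 without null array 2 or P5 array 2, and no macrophage gene was called lower in any of these fits. Without null array 3 the count was again 5, of which Ctss and Clec4d were shared with the first count. Mpeg1, Coro1a and Olr1 were lost there, and the dim genes Msr1, Ncf4 and Spi1 were called in their place, Spi1 by a difference of 0.09 (adjusted p = 0.0214).

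**Figure D2:**
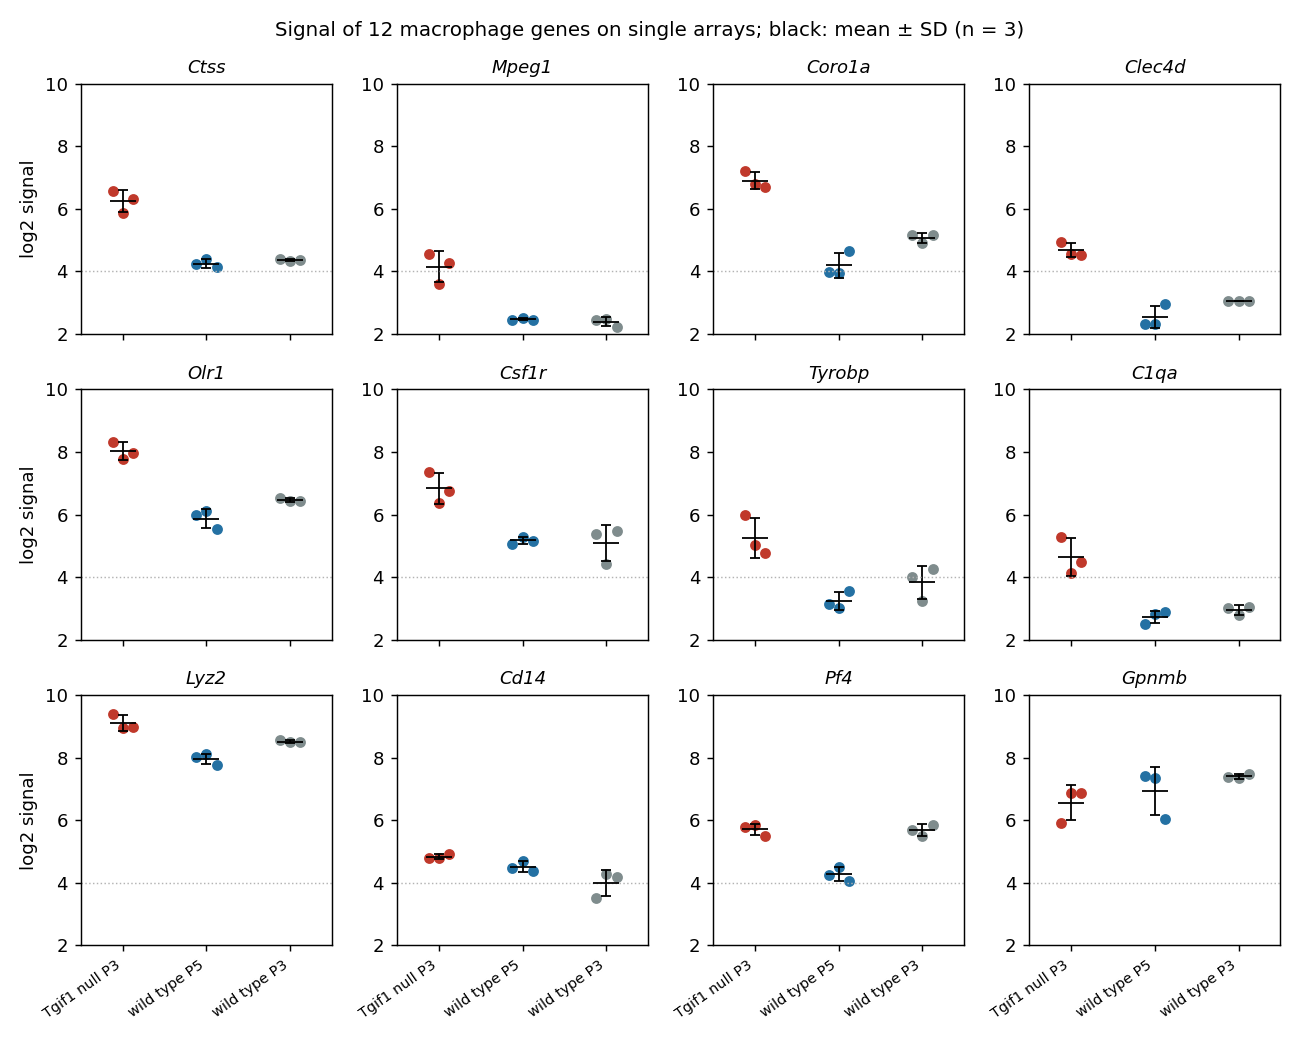
Log2 signal of 12 macrophage genes in Tgif1 null P3, wild type P5 and wild type P3 cells. Points are single arrays, black bars the mean with its SD (n = 3), and the dotted line the background level of 4; for Ctss, Mpeg1, Coro1a, Clec4d and Olr1 every null array lies above every wild type array.

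Csf1r, the receptor for the survival factor of macrophages, gave different answers from its 3 probe-sets. The brightest had 7.36, 6.38 and 6.76 in null cells, 5.06, 5.29 and 5.17 in P5 cells, and 5.37, 4.43 and 5.46 in P3 cells. Its difference to P3 was 1.75 (SE 0.35, 3.36-fold), which missed the threshold (adjusted p = 0.0808), and that to P5 was 1.66, which passed (adjusted p = 0.0417). The second had 4.77, 4.63 and 4.65 in null cells, 3.37, 3.61 and 3.61 in P5 cells, and 3.37, 3.61 and 3.54 in P3 cells, and its difference to P3 of 1.18 (SE 0.09) passed (adjusted p = 0.00561). The third lay between 4.31 and 4.57 on all 9 arrays, with a difference of -0.10 (adjusted p = 0.768). With the second probe-set counted, 6 genes rather than 5 had a probe-set that rose.

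Among the signalling chains shared by surface receptors, 2 were above background. Fcer1g, the gamma chain of Fc receptors, had 6.13, 5.25 and 5.19 in null cells, 3.60, 4.16 and 3.94 in P5 cells, and 4.39 on each P3 array. Tyrobp, the DAP12 adaptor used by Trem2 and others, had 5.97, 5.03 and 4.77 in null cells, 3.14, 3.01 and 3.56 in P5 cells, and 3.996, 3.24 and 4.26 in P3 cells. Neither difference to P3 passed the test (1.13, adjusted p = 0.144 for Fcer1g, and 1.43, adjusted p = 0.214 for Tyrobp), and both differences to P5 did (1.62, adjusted p = 0.0201, and 2.02, adjusted p = 0.0338). Probes differ in brightness, so levels are compared between arrays and not between genes.

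Cd14, the coreceptor for bacterial lipopolysaccharide, had 4.80, 4.79 and 4.93 in null cells, 4.47, 4.72 and 4.38 in P5 cells, and 3.51, 4.30 and 4.19 in P3 cells. It was the 1 macrophage gene whose P5 arrays all lay above the P3 arrays, with no test passed (adjusted p = 0.164 for null against P3 and 0.262 for P5 against P3). Mrc1 had 3.91, 3.78 and 3.94 in null cells, 3.15, 3.17 and 3.12 in P5 cells, and 3.75, 3.17 and 3.17 in P3 cells, which is near background, and passed against P5 alone (0.73, adjusted p = 0.0466). Fcgr3, the low-affinity IgG receptor, ranged from 2.90 to 5.23, Cd52 from 3.05 to 5.10, the actin-bundling protein Lcp1 from 2.33 to 4.85 and Cd53 from 3.52 to 4.09, and none of the 4 passed in any comparison.

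The 3 chains of complement C1q, which macrophages secrete as the recognition unit of the classical pathway, had higher values on every null array than on any P3 array. C1qa had 5.30, 4.12 and 4.48 in null cells, 2.51, 2.81 and 2.88 in P5 cells, and 3.02, 2.77 and 3.05 in P3 cells. C1qc had 5.61, 3.86 and 4.33 in null cells, 2.61, 2.36 and 2.35 in P5 cells, and 3.04, 3.03 and 3.10 in P3 cells. C1qb had 6.75, 5.46 and 5.39 in null cells, 4.57, 4.25 and 4.25 in P5 cells, and 4.88, 4.81 and 5.17 in P3 cells. Null array 1 stood 1 or more above the other null arrays in C1qb and C1qc, and the SDs within the null were 0.60, 0.76 and 0.91 for C1qa, C1qb and C1qc. The differences to P3 of 1.68 (adjusted p = 0.0592), 0.91 (adjusted p = 0.475) and 1.55 (adjusted p = 0.197) did not pass. Against P5, C1qa (1.90, adjusted p = 0.0154) and C1qc (2.16, adjusted p = 0.032) passed and C1qb did not by its brightest probe-set (1.51, adjusted p = 0.0677), whereas both of its dimmer probe-sets did (2.56, adjusted p = 0.0137, and 2.44, adjusted p = 0.027). Without null array 1, C1qa passed against P3 (1.35, adjusted p = 0.0391).

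**Figure D3:**
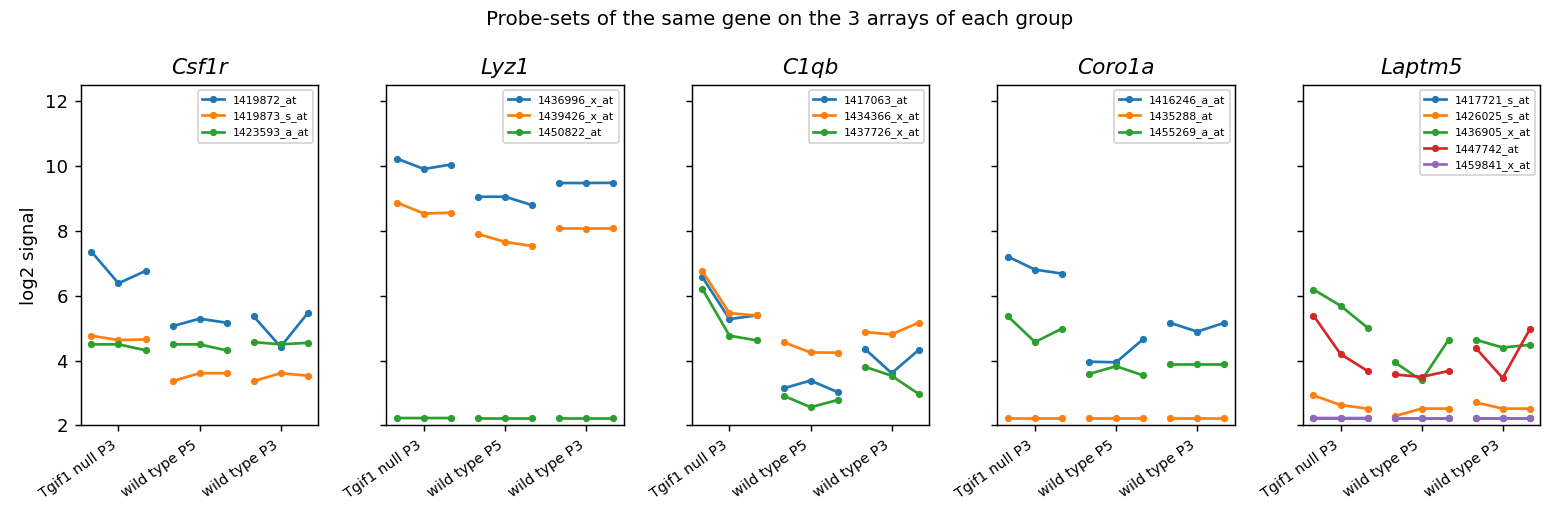
Log2 signal of all probe-sets of Csf1r, Lyz1, C1qb, Coro1a and Laptm5 on the 3 arrays of Tgif1 null P3, wild type P5 and wild type P3 cells; lines join the arrays of a group for legibility and replicates have no order. In Csf1r the third probe-set is level at 4.31 to 4.57 while the other probe-sets are highest in the null, and in Lyz1 the probe-set without shared probes lies at 2.23.

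Lysozymes, which cleave bacterial cell walls, were above background on all 9 arrays. Lyz2, the form made by macrophages, had 9.40, 8.94 and 8.97 in null cells, 8.01, 8.11 and 7.78 in P5 cells, and 8.56, 8.49 and 8.51 in P3 cells. The 3 groups did not overlap. Null cells were higher than P5 cells by 1.14 (SE 0.14, 2.20-fold, adjusted p = 0.00687), while neither the difference of null to P3 (0.58, adjusted p = 0.144) nor that of P5 to P3 (-0.55, adjusted p = 0.0707) passed. Lyz1, the form of the Paneth cells of the gut, had 10.23, 9.91 and 10.05 in null cells, 9.05, 9.05 and 8.79 in P5 cells, and 9.48 on each P3 array. Its brightest probe-sets carry the x_at ending, which marks probes shared with other sequences, and the probe-set without that ending lay at 2.23 on all 9 arrays. The values of Lyz1 and Lyz2 are therefore not independent, although both stand in the counts. The brightest probe-sets of C1qb and Laptm5 carry the x_at ending too.

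Of the other lysosomal genes, Laptm5, a lysosomal membrane protein of blood cells, had 6.19, 5.69 and 5.02 in null cells, 3.96, 3.39 and 4.65 in P5 cells, and 4.65, 4.40 and 4.49 in P3 cells, and passed no test. Its 5 probe-sets did not move alike, since the second brightest overlapped between null and P3 cells (0.15, adjusted p = 1). Gpnmb, a lysosomal glycoprotein of macrophages and pigment cells, ran the other way. It had 5.92, 6.89 and 6.88 in null cells, 7.43, 7.36 and 6.06 in P5 cells, and 7.39, 7.35 and 7.50 in P3 cells. It was the only macrophage gene with all null arrays below all P3 arrays, and the difference of -0.85 (SE 0.44) did not pass (adjusted p = 0.676).

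With passage, in wild type P5 against wild type P3 cells, Pf4 and Lyz1 fell and none of the 41 genes rose, where 6.13% of all genes rose and 7.11% fell. At an unadjusted p under 0.05, 1 was higher and 6 were lower, against 12.1% and 14.4% of all genes. All 3 P5 arrays lay below all 3 P3 arrays in 9 of the 41, against 16.2% of all genes. The median difference was -0.004 over the 41, most of which were at background, and -0.51 over the 15 with a mean above 4, of which 3 had a positive difference. Over all genes these medians were 0 and -0.03. Fitted without probe-sets that were above 4 on fewer than 3 arrays, Lyz2, Coro1a and Olr1 fell as well. Lyz1 fell by 0.51 on the log2 scale (SE 0.10, adjusted p = 0.0289), a call that was lost without any 1 of 7 arrays and kept without null array 1 or 2, so that the count of 2 became 1 without null array 3, any P3 array or P5 array 1 or 2.

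Pf4, platelet factor 4, a CXC chemokine of megakaryocytes and of some tissue macrophages, followed a pattern of its own. It had 5.79, 5.84 and 5.51 in null cells, 4.24, 4.52 and 4.07 in P5 cells, and 5.70, 5.51 and 5.87 in P3 cells. It was lower in P5 than in P3 cells by 1.42 on the log2 scale, with -1.42 (SE 0.15, 2.67-fold, adjusted p = 0.00399), and this call held under all 16 alternatives. Null and P3 cells overlapped, with a difference of 0.02 (SE 0.15, adjusted p = 1). Ppbp, another CXC chemokine made by megakaryocytes, had 10.62, 10.56 and 10.58 in P5 cells and 8.27, 7.90 and 8.47 in P3 cells, which is the opposite direction (2.37, adjusted p = 0.000553).

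Between Tgif1 null P3 and wild type P5 cells, 14 of the 41 macrophage genes were higher in the null and none lower, where 6.08% of all genes were higher and 5.33% lower. All 3 null arrays lay above all 3 P5 arrays in 19 of the 41, against 16.6% of all genes, and the median difference over the 41 was 0.32, with 0 over all genes. The 14 genes were Ctss, Coro1a, Mpeg1, Clec4d, Olr1, Csf1r, Fcer1g, Tyrobp, C1qa, C1qc, Mrc1, Lyz2, Lyz1 and Pf4. Genotype and passage both differ here and cannot be told apart. This comparison shares the null arrays with the first and the P5 arrays with the second, so the lists are not independent of each other. The calls of Csf1r (lost in 11 of 17 alternatives), Tyrobp (10 of 16), C1qc (10 of 15) and Mrc1 (10 of 15) were lost in most of the settings tried. Those of Ctss, Coro1a, Clec4d, Olr1, Lyz2, Lyz1 and Pf4 were kept in every setting that tested them. The count became 8 without P5 array 1 or 2, and lay between 10 and 14 without any other single array.

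**Figure D4:**
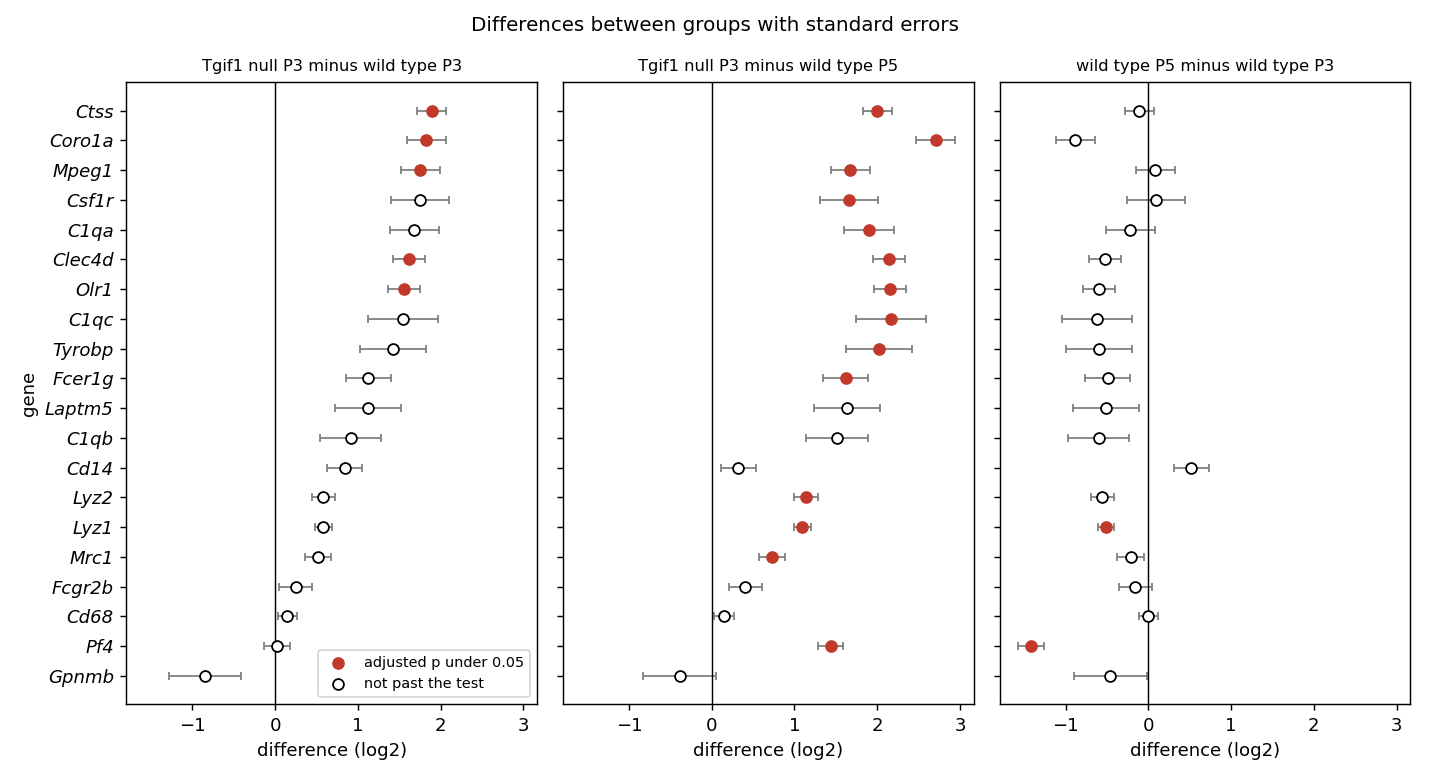
Difference in log2 signal with its standard error for the 20 macrophage genes that were above background or passed a test, in the 3 comparisons. Filled points passed the test at an adjusted p under 0.05. All 20 but Gpnmb lie to the right of 0 in the first panel, and Pf4 lies furthest to the left in the third. The direction in the first panel is partly set by how the genes were picked. Mpeg1, C1qc and Mrc1 entered only by passing as higher in the null, and Tyrobp, C1qa and Clec4d were above background in the null alone.

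Null array 1 gave the highest macrophage signals. The 15 genes whose mean over the 9 arrays was above 4 were used to compare arrays. The null arrays enter this mean, and Tyrobp passed only through them. Their median deviation from the P3 mean was 1.68, 0.79 and 0.57 on null arrays 1, 2 and 3, lay between -0.43 and -0.41 on the P5 arrays and between -0.04 and 0.04 on the P3 arrays. The same medians over all 9931 genes of that brightness lay between -0.03 and 0.01. With the 14 genes whose mean over the 6 wild type arrays was above 4, the medians were 1.28, 0.73 and 0.54 on the null arrays and lay between -0.43 and -0.39 on the P5 arrays. Null array 1 was the highest of the 9 arrays in 11 of the 15 macrophage genes, against 20.1% of all genes. In 11 of the 15, null arrays 2 and 3 also lay above every P3 array, and over the 41 genes this held for 18. The share of all genes with this separation was not computed, so these 2 counts have no reference. Because null array 1 was so often the highest, the comparisons were repeated without it. Then 5 genes were again higher than in P3, of which 4 were shared with the first count: Ctss, Mpeg1, Clec4d and Olr1, with C1qa in place of Coro1a (1.67, adjusted p = 0.0532). Against P5, 12 were higher without it.

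**Figure D5:**
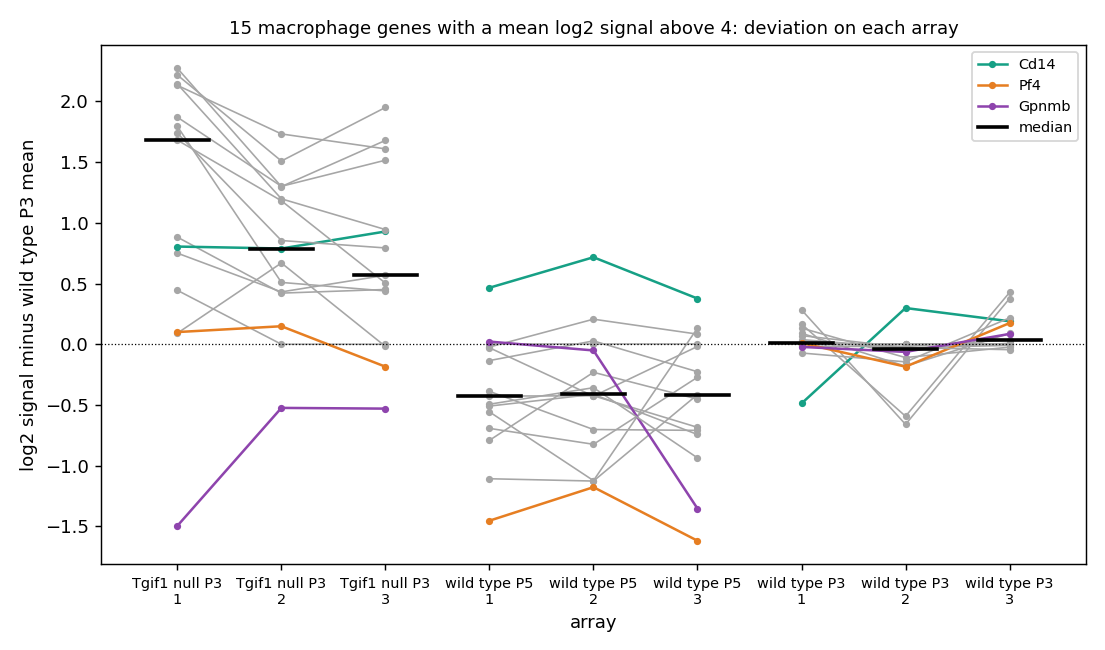
Deviation of 15 macrophage genes from their wild type P3 mean (log2) on each array; lines join the arrays of a group for legibility, replicates have no order, and black bars are medians. The medians are 1.68, 0.79 and 0.57 on the null arrays and between -0.43 and -0.41 on the P5 arrays. Gpnmb, Pf4 and Cd14 are drawn in colour, and other genes leave the medians too. Cd68 is level on 8 arrays, Fcgr2b is highest on null array 2, and Csf1r and Ctss overlap between P5 and P3 arrays.

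Whether the genes vary together within a group was measured on deviations from the group means, with Lyz1 left out because it shares probes with Lyz2. Over the 9 arrays, 30 of the 91 pairs of 14 genes (33%) had a correlation above 0.5, against 20.7% of the pairs of a macrophage gene with any other gene. Cd68 read alike on 8 arrays, so its correlations came from null array 1 alone, and without it 21 of 78 pairs (26.9%) were above 0.5, against 20.3%. Without null array 1, where Cd68 does not vary and drops out, it was 12 of 78 pairs (15.4%), against 17.5%. Apart from Cd68, C1qb and Fcer1g had the highest median correlation with the other macrophage genes over 9 arrays (0.62 and 0.58), and Gpnmb the lowest (-0.30). These correlations describe 9 arrays that share a normalization and have 6 residual degrees of freedom, and carry no test.

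Genes of skeletal muscle were also higher in the null, and their co-variation with the macrophage genes within groups rested on null array 1. Of 12 muscle genes measured, 9 rose and 0 fell in null against P3 cells, 0 rose and 6 fell in P5 against P3 cells, and 10 were higher in null than in P5 cells. Over all genes, 1.51% rose and 1.07% fell in null against P3 cells. With passage 6.13% rose and 7.11% fell, and 6.08% were higher in null than in P5 cells. The summed signal of the 12, on a linear scale, ranged from 2590 to 4302 in null cells, from 249 to 265 in P5 cells and from 720 to 872 in P3 cells. Null array 1 was the highest of the 9 arrays in all 8 muscle genes with a mean above 4. The 9 that rose include the troponin Tnnc2 (3.14, adjusted p = 0.00424), the myosin light chain Myl1 (2.52, adjusted p = 0.0113), the myosin heavy chain Myh3 (2.35, adjusted p = 0.00575) and the myogenic factor Myog (2.18, adjusted p = 0.0103). Over the 9 arrays, the correlation of macrophage with muscle genes exceeded 0.5 in 53.6% of pairs, against 20.7% for macrophage genes with any other gene. Without null array 1 these shares were 18.3% and 17.5%. Whether the muscle difference plays a part in the macrophage result was not tested.

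Other myeloid and immune genes were mostly silent. Of 50 further myeloid genes, 9 were above background, against 54.9% of all genes. None passed against P3 in the null, where 1.51% of all genes rose and 1.07% fell. Against P5, 4 rose (Plek, Arhgdib, Alox5ap and Itgb3) and 2 fell (Ctsk and Tnfrsf11a). That is near the shares of all genes, 6.08% higher and 5.33% lower. Each of these 6 calls was lost in 5 or more of the alternative settings. The median difference of the 50 to P3 was 0, as over all genes. Adgre1, which encodes the F4/80 antigen used to identify mouse macrophages, lay between 2.84 and 3.10, and the chemokine receptors Cx3cr1 and Ccr2 between 2.37 and 2.81 and between 2.47 and 2.68. Alox5ap, the leukotriene cofactor, had 5.75, 5.18 and 5.18 in null cells, 4.14, 4.57 and 4.22 in P5 cells, and 4.47, 4.33 and 4.16 in P3 cells, with a difference to P3 of 1.04 (adjusted p = 0.07) and to P5 of 1.06 (adjusted p = 0.0276). Of 10 endothelial genes, 3 were above background, and of 8 erythroid and megakaryocyte genes 1, which was Ppbp, and neither list had a gene past the test for null against P3.

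None of 11 neutrophil genes and none of 12 lymphocyte genes was above background, and no gene of either list passed a test. Of 15 mast cell genes, Kit, Cpa3 and the chymases and tryptases lay at 2.23 on all arrays, while Tph1, the enzyme of serotonin synthesis, had 5.66, 5.15 and 5.39 in null cells, 2.23 on each P5 array, and 3.25, 3.30 and 3.30 in P3 cells (2.11 for null against P3, adjusted p = 0.00224). No other mast cell gene passed for null against P3.

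The ligands of Csf1r and the lysosomal genes that all cells use had no call for null against P3. A list of 10 genes held the colony-stimulating factors, Il34 and their receptors, Csf1r included, and also Tnfsf11 and Tnfrsf11b. None of the 10 passed for null against P3, where 1.51% of all genes rose and 1.07% fell. A list this small would hold few calls in any case. Csf1, bright as in other fibroblasts, had 11.19, 11.28 and 11.24 in null cells, 11.99, 11.82 and 11.88 in P5 cells, and 11.25, 11.27 and 11.47 in P3 cells. It rose in P5 against P3 cells (0.56, adjusted p = 0.00581) and was lower in null than in P5 cells (-0.66, adjusted p = 0.00375). Il34, the other ligand, lay at 2.23 on all arrays, where a fall could not be seen. Of 22 general lysosomal genes, 0 rose and 0 fell in null against P3 cells. In P5 against P3 cells 8 rose, against 6.13% of all genes, and 6 were lower in null than in P5 cells, against 5.33%.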

How the data were processed

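Total RNA of 9 MEF cultures was labelled with biotin and hybridised, 1 array per culture, to arrays with 45101 probe-sets. The authors deposited log2 signals made with GCRMA, a method that subtracts background predicted from probe sequence, quantile-normalizes the arrays and combines the probes of a set. Per the submitters' notes limma was used too; no version is stated for either tool. No further normalization was applied. Signals near the lowest value cannot show a decrease, so folds of dim genes are likely understated. The number of arrays limits the precision.

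Probe-sets were named from the platform annotation: 34958 had 1 gene, 932 several and 9211 were not named here. Groups came from the sample titles. A mean for each of the 3 groups was estimated from the 9 arrays together with limma 3.58.1 in R 4.3.3 (empirical Bayes at its defaults), with Benjamini-Hochberg adjustment over all 45101 probe-sets and an adjusted p under 0.05 as threshold. The fit was tested on simulated data. An exact test of 3 against 3 arrays could not go below a p of 0.1. Ties were counted within 0.01. Sequences came from RefSeq tables of GRCm38.p6 and were searched on both strands with Python 3.11.15.

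The genes and lists were chosen with earlier results of these data known. Values on single arrays are given for macrophage genes with a probe-set past the test in any comparison or above background, and for Ptprc, Itgam, Itgb2, Spi1, C1qa and Cd68. Other macrophage genes are given by range and count. From each other list, up to 4 genes with the smallest p for null against P3 among those past the test are named by the same rule, while Adgre1, Cx3cr1, Ccr2, Plek, Arhgdib, Alox5ap, Itgb3, Ctsk, Tnfrsf11a, Kit, Cpa3, Csf1, Il34 and Ppbp were chosen after their values were seen. Alternatives were filters on dim probe-sets, another variance prior, quantile normalization, median centring, a replicate block, 2 groups fitted alone, the mean of a gene's probe-sets and each array left out. Co-variation, and the deviations of genes picked by their wild type mean, were summarised after the values were seen.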

Additional observations from a re-analysis of the deposited data

How the results depend on the processing

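Macrophage genes higher in the null than in P3 numbered 5, and 11 with probe-sets required to be above log2 4 on at least 3 arrays (17 genes tested). Of these 11, C1qa and Clec4d passed that filter through their null arrays alone. Tyrobp needed its null arrays too, as P3 array 3 was its only wild type array above 4. The count was 8 after median centring and 8 with the mean of a gene's probe-sets. It was 1 with a prior that follows the signal (Ctss), 1 with the 6 arrays of both groups alone (Clec4d), and 1 to 5 with each array left out. The 2 genes lower in P5 than in P3 became 5 above log2 4, 4 above log2 6 (6 genes tested), 1 with that prior and 1 to 3 with each array left out. The 14 genes higher in the null than in P5 became 5 above log2 6, 8 with 6 arrays, and 8 to 14 with each array left out. Of the 6 genes tested above log2 6, Csf1r and Coro1a passed that filter through their null arrays alone. Both were among these 5, and Coro1a was also among the 4 lower in P5 than in P3. Genes higher in P5 than in P3, and lower in the null than in P5, were 0 to 1 with each array left out; the 1 was Cd53, without P5 array 3. The 17 genes above background became 6 at log2 6, 9 if all 9 arrays had to pass and 17 to 21 with each array left out. Quantile normalization changed no count, but GCRMA had already quantile-normalized the arrays, so little change was possible. Causes were not tested, apart from the fewer genes tested under the filters.

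Array numbers gave no consistent pairing of the cultures. Deviations of same-numbered arrays correlated at 0.395, 0.197 and -0.491 for null and P3, and not every array correlated best with its own number. For P5 and P3 these correlations were -0.055, 0.159 and 0.14, and P5 arrays 2 and 3 correlated best with their own number. Deviations from the means of so few arrays cannot decide whether cultures were paired. With the replicate block, 0 genes were higher in the null than in P3 (Ctss lost its call too), 1 was lower in P5 than in P3 (Pf4) and 8 were higher in the null than in P5.

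Most comparisons of the named genes had no call in the first fit and so none to lose. Over 28 named macrophage genes and 14 named genes of other lists, 1774 values kept their direction and side of the threshold. Another 169 lost and 60 gained a call, and 19 changed sign, with no call in either fit. With each array left out, these were Pf4 (-0.0711 to 0.124), Ptprc (-0.0136 to 0.0418) and Ppbp (-0.169 to 0.116) for null against P3, and Csf1r (-0.241 to 0.277), Cd52 (-0.106 to 0.0446), Fcgr3 (-0.311 to 0.0397), Alox5ap (-0.145 to 0.072) and Plek (-0.0583 to 0.0615, and 0.0251 with the mean of its probe-sets) for P5 against P3. Of the 5 calls against P3, Ctss was lost in 2 of 16 alternatives, Clec4d in 6 of 16, Olr1 in 8 of 17, Mpeg1 in 10 of 15 and Coro1a in 11 of 17. Dim genes limit the comparison: 10 of the 41 spanned less than 0.1 over the 9 arrays.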
